A study of Mus musculus with 6 samples.

Results

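Open chromatin was examined at the olfactory receptor genes (Or) and the vomeronasal receptor genes of types 1 and 2 (Vmn1r, Vmn2r) in mouse blood leukocytes. A member was a merged ATAC-seq region on chromosomes 1 to 19 with a peak summit in the body of such a protein-coding gene or within 3 kb of it, in the GENCODE annotation of GRCm39. This gave 161 regions of 60298 merged regions. The remaining regions were 38662 at other protein-coding genes and 21475 outside the windows of any protein-coding gene. The members lie at or beside 129 of 1537 receptor genes.

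ATAC-seq inserts adapters into open DNA with the Tn5 transposase, and was done here on about 50000 red-cell-lysed leukocytes per library from adult male C57BL/6J mice. The control group (3 libraries) was kept in normal oxygen. The HADA group (high-altitude de-acclimatization, 3 libraries) lived in a hypobaric hypoxia chamber and was then returned to normal oxygen. Each library is a mixture of unsorted blood cells, so fewer cells of a type and less accessibility per cell cannot be told apart. The sources used here do not say that each library came from a separate mouse, and the p-values then measure only the spread between these libraries.

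Olfactory receptors detect odorants in the nasal epithelium, and vomeronasal receptors detect pheromones and related cues in the vomeronasal organ. Both are large families in clusters along the genome, and a sensory neuron expresses as a rule a single receptor allele while the other copies are packed in heterochromatin. Blood cells are not known to use these genes as a group, so the peaks at them give the level that a peak list reaches at genes expected to be silent. The clusters are also rich in duplicated genes and dispersed repeats, where short reads are hard to place.

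The windows cover 21.3 Mb. They are poor in G and C, at 37.8% against 43.3% in the windows of other protein-coding genes. Of 50-base stretches sampled evenly across them, 83.2% occurred a single time in the genome, against 93.5% at other coding genes. This share was 90.4% for Or, 70.8% for Vmn1r and 68.8% for Vmn2r windows.

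The bases under a few of these summits show what kinds of sequence were called. Each line below gives 101 bases of the plus strand of GRCm39 centred on the summit. The capitals mark the 50 bases at the summit, the stretch used to count exact copies in the genome on both strands. The first is the tallest member away from any other coding gene, the next 2 were called in a single group only, and the last 6 have 1 to 10363 copies. Of the last 6, Or52n2, Vmn2r51, Vmn2r41 and Or51aa2 were picked as lower in HADA, and Or1o3 and Vmn2r91 as among the most repeated.
Or6s1, downstream, chr14:51302487-51302587, 1 copy: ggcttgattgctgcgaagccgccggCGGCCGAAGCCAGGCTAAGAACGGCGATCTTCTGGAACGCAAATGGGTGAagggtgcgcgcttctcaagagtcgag
Vmn2r27, intron, chr6:124179271-124179371, 1 copy: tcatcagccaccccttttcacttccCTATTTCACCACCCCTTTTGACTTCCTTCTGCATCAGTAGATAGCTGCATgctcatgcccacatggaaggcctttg
Or8u9, intron, chr2:86005929-86006029, 1 copy: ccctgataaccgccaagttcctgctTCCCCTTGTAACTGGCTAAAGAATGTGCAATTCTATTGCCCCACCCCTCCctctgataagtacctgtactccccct
Or52n2, downstream, chr7:104538226-104538326, 1 copy: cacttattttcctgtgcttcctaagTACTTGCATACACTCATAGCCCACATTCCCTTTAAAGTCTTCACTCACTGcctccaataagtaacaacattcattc
Vmn2r51, upstream, chr7:9842262-9842362, 1 copy: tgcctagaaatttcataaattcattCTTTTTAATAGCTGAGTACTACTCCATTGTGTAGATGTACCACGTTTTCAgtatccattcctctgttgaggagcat
Vmn2r41, downstream, chr7:8137812-8137912, 10 copies: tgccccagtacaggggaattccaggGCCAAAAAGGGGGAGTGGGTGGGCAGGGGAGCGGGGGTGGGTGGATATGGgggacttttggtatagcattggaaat
Or51aa2, downstream, chr7:103183756-103183856, 282 copies: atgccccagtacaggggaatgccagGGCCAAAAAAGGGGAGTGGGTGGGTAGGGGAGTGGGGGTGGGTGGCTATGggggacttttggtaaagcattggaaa
Or1o3, downstream, chr17:37571022-37571122, 3500 copies: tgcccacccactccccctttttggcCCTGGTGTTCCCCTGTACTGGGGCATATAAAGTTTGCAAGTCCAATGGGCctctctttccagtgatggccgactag
Vmn2r91, intron, chr17:18311231-18311331, 10363 copies: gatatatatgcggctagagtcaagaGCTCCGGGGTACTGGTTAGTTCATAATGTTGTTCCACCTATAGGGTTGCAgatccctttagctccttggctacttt

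Sequence shared between distant clusters is visible in these lines. The window at Vmn2r41 on chromosome 7 and the window at Or1o3 on chromosome 17 have in common an unbroken run of 30 bases, read on opposite strands. Or51aa2 shares a run of 19 bases with each of them.

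Cell type markers were checked before the receptors. The leukocyte markers had a peak in all 6 libraries for 3 of 3 genes, as did the B cell markers for 4 of 4 and the neutrophil markers for 4 of 4. The T cell and monocyte lists had 2 of 3 each, and the NK cell list 0 of 2. Of 4 erythroid genes on these chromosomes, Klf1 was the 1 with a peak in every library. Of 6 genes listed for olfactory neurons, Omp and Gng13 had no peak in any library. Gnal, Adcy3 and Cnga4 had peaks in all 6 libraries, and Stoml3 in 5. The libraries held 32533 to 44102 peaks on chromosomes 1 to 19, of 34128 to 45885 deposited, and the genome-wide background pileup, a proxy for depth, was between 1.69 and 2.05 in the control lists and between 1.99 and 2.34 in those of HADA. Control 2 stood apart at receptor regions, as shown beside the results it bears on. Its list differed elsewhere too. Summit bases with at least 2 copies lay under 17.3% of its peaks away from receptor genes. In the other libraries this share was 8.89% to 13.2%.

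How many receptor peaks does each list hold? The control lists held 96, 115 and 84 receptor peaks, and the HADA lists held 80, 86 and 87. The counts of the groups overlapped, with control 2 the highest and HADA 1 the lowest of all. The HADA mean was lower by 14 peaks (84.3 ± 3.79 against 98.3 ± 15.6, SD, n = 3 each; p = 0.3, two-sided exact permutation test, whose smallest possible value with 3 against 3 is 0.1). The count was not stable: the difference was −5.67 without control 2, and −21.2 with the groups apart without control 3 (p = 0.1, exact permutation). At a −log10 q of at least 10 the lists held 44, 62 and 45 receptor peaks in control and 46, 47 and 48 in HADA. Each HADA list then held more than controls 1 and 3, and the difference of −3.33 (p = 1, exact permutation) rested on control 2. With every list cut to its strongest peaks at equal length the difference was −26, with the groups apart (p = 0.1, exact permutation).

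Relative to list length the groups separated. Every HADA list was longer than every control list: 42911, 42500 and 44102 peaks on chromosomes 1 to 19, against 39769, 39176 and 32533. The rate thus differs between the groups in its denominator as well as in its count. Receptor peaks numbered 24.1, 29.4 and 25.8 per 10000 peaks for the control libraries, and 18.6, 20.2 and 19.7 per 10000 for HADA. Every HADA library lay below every control library. The difference was −6.90 per 10000 (19.5 ± 0.813 against 26.4 ± 2.66, SD, n = 3 each; p = 0.1, exact permutation). With libraries of the same replicate number treated as pairs, a replicate block that the labels do not call for, p was 0.25 for this rate, the smallest that 3 pairs allow, and 0.5 for the count (exact sign-flip). Without control 2 the rate difference was −5.44 with the groups still apart. At a −log10 q of at least 10 it was −5.25, also with the groups apart, although each HADA list then held more receptor peaks than controls 1 and 3. The rate difference kept its sign under every alternative tried, but its size depended on what was counted: it was −2.34 with gene bodies alone, −16.7 with 10 kb flanks and −4.47 with summits whose bases occur a single time in the genome.

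**Figure D1:**
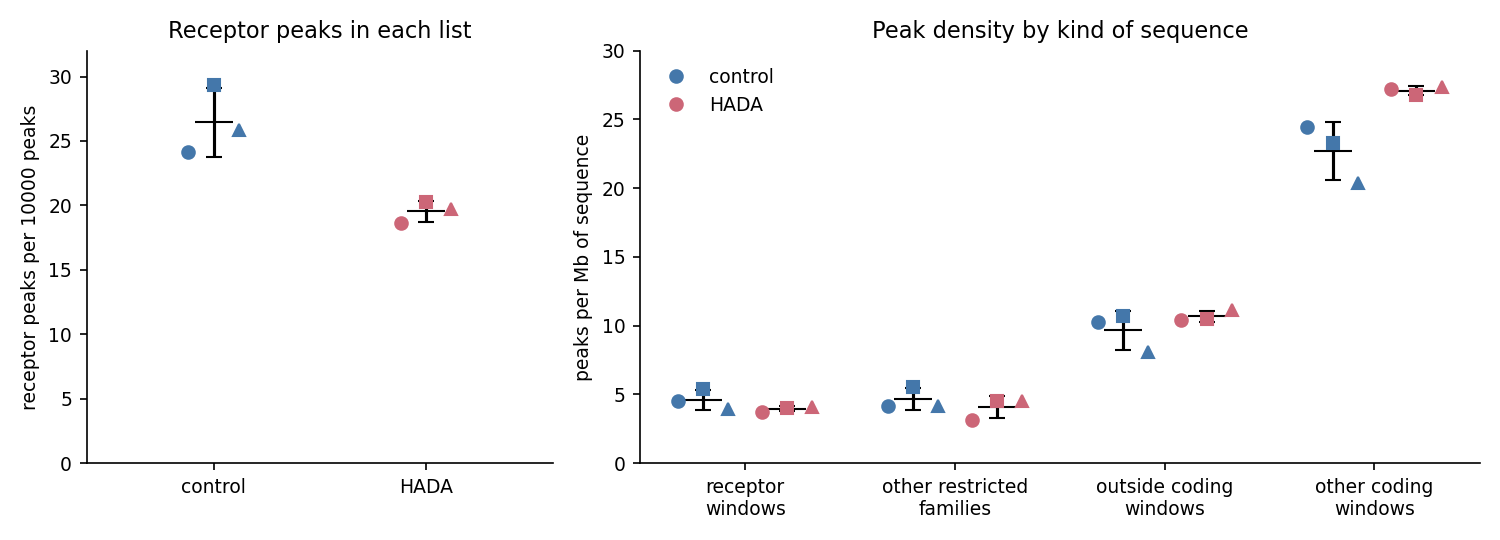
Left, receptor peaks per 10000 peaks in each library; right, peaks per Mb of sequence in 4 kinds of windows. Points are libraries (circle, square and triangle for replicates 1, 2 and 3), bars are the group mean with SD, n = 3; the 3 HADA libraries lie between 18.6 and 20.2 on the left, below all control libraries, and receptor windows share the lowest densities with the windows of other restricted families.

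Peaks were sparse in receptor windows. Their density was 4.5, 5.39 and 3.94 per Mb in control and 3.75, 4.03 and 4.08 per Mb in HADA. In windows of other coding genes it ran from 20.4 to 27.4 per Mb, and in sequence outside coding windows from 8.06 to 11.2 per Mb. On the log2 scale the receptor density was lower than that of other coding windows by a mean of −2.54 (SD 0.283, lower in 6 of 6 libraries; p = 0.03125, two-sided exact sign-flip permutation test, the smallest value that 6 libraries allow). Against sequence outside coding windows the difference was −1.25 (SD 0.211, lower in 6 of 6 libraries; p = 0.03125, exact sign-flip). The latter rests in part on the window: it was −0.55 with 10 kb flanks.

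Receptor genes were compared with other families of restricted expression: keratins and keratin-associated proteins, beta-defensins, taste and trace amine receptors, major urinary proteins and prolactins. Their windows held 9 to 16 peaks per library, or 3.13 to 5.56 per Mb. The log2 ratio of receptor to restricted density was −0.01 (SD 0.166, lower in 4 of 6 libraries; p = 0.875, exact sign-flip).

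Of the 1537 receptor genes, 129 (8.39%) had a peak in at least 1 library and 40 (2.60%) had one in all 6. Among 19084 other protein-coding genes these shares were 79.1% and 65.8%. Per library, between 63 and 99 receptor genes had a peak. The share of genes with a peak was 68.0 percentage points lower for receptors (SD 2.62, lower in 6 of 6 libraries; p = 0.03125, exact sign-flip).

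The families differed in how much they were called. Peaks lay at 88 of 1186 Or genes (7.42%), at 16 of 229 Vmn1r genes (6.99%) and at 25 of 122 Vmn2r genes (20.5%). The Vmn2r genes are long, with a median body of 27.6 kb against 5.89 kb for Or. Per Mb of window, Or density was 4.0 to 5.43, Vmn1r density 2.06 to 4.47 and Vmn2r density 4.05 to 5.85. Or exceeded Vmn1r by 0.52 on the log2 scale (SD 0.324, higher in 6 of 6 libraries; p = 0.03125, exact sign-flip), while Or and Vmn2r differed by −0.09 (SD 0.112, p = 0.0625, exact sign-flip). Both depend on the scaling, since the share of sampled 50-base stretches that occur a single time was 90.4% in Or windows, 70.8% in Vmn1r windows and 68.8% in Vmn2r windows. Per Mb of such sequence, with all peaks counted, Or was above Vmn1r in 4 of 6 libraries, by 0.17 in the mean (SD 0.324, p = 0.3125, exact sign-flip). On that scale Or was below Vmn2r in 6 of 6, by −0.49 (SD 0.112, p = 0.03125, exact sign-flip). With peaks on repeated summit bases also left out, Or was above Vmn1r by 0.39 in 6 of 6 (SD 0.385, p = 0.03125, exact sign-flip) and differed from Vmn2r by −0.12 (SD 0.132, lower in 5 of 6, p = 0.09375, exact sign-flip). These scalings were added after seeing the data, and Vmn1r windows held 6 to 13 peaks in a library. The fish-like class I receptors had peaks at 11 of 137 genes and the class II receptors at 77 of 1049.

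The regions were spread thinly over 74 clusters, defined by gaps of over 500 kb, of which 27 clusters with 142 genes held none. Chromosome 7 held 40 regions for 428 receptor genes, and chromosome 2 held 18 for 312. The cluster of 243 Or genes on chromosome 2 held 14 regions, and a cluster of 40 Or genes on the same chromosome held 0. The 86 genes from Vmn1r91 to Vmn1r183 held 2. At the other extreme, 3 neighbouring genes on chromosome 8, Or2z8, Or2z9 and Or1ab2, held 7 regions, of which 0 were in all 6 libraries.

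Few regions lay at a receptor gene's start. A summit fell within 1 kb of a receptor transcription start for 9.4%, 7.0% and 13.1% of receptor peaks in control and for 13.8%, 11.6% and 9.2% in HADA. For peaks at other coding genes, 44.2% to 51.3% lay that close to a coding start. The difference was 35.9 percentage points in favour of other genes (SD 3.41, 6 of 6 libraries; p = 0.03125, exact sign-flip). Of the 161 regions, 52 were intronic, 50 downstream, 30 upstream and 29 exonic.

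The strongest regions at receptor genes were often starts of other genes. Heights are given as the summit pileup divided by the library's genome-wide background, here called height over background. The tallest lay in an exon of Vmn1r4 on chromosome 6 (56900506 to 56901482), 98 bases from the receptor start and 91 bases from a start of Nt5c3, a pyrimidine nucleotidase. Control libraries stood at 185, 132 and 146 and HADA libraries at 219.7, 205 and 189. The 3 HADA libraries were above the 3 controls on this scale, but after centring on the median shared region the difference was 0.02 (SE 0.147, limma, adjusted p = 0.923).

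A region downstream of Or2c1 (chromosome 16, 3664601 to 3665446) lay 80 bases from a start of Zfp174, a zinc finger gene. Control libraries stood at 61.5, 50.2 and 50.8 and HADA libraries at 84.2, 69.8 and 71.4. A region downstream of Or6b2 (chromosome 1, 92401088 to 92402158) lay 7 bases from a start of Ndufa10, a subunit of respiratory complex I. It stood at 66.3, 41.5 and 44.3 in control and at 66.7, 77.9 and 67.4 in HADA. Both were higher in every HADA library on this scale, but after centring the groups overlapped, with differences of 0.08 at Or2c1 (adjusted p = 0.709) and 0.11 at Or6b2 (adjusted p = 0.605, limma).

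The Or2v1 gene held 14 of the 161 regions, the most of any receptor gene, and 6 of them were in all 6 libraries. Its annotated body of 84655 bases on chromosome 11 spans Ifi47 and Tgtp2, interferon-inducible GTPases of immune defence. The strongest of these regions (48940759 to 48942919) was 627 bases from a start of 9930111J21Rik2. It stood at 74.6, 52.2 and 88.5 in control and at 123.5, 110.1 and 102 in HADA. These heights were apart, but the centred log2 pileups of the groups overlapped, with a difference of 0.27 (SE 0.219, limma, adjusted p = 0.336). In all, 9 regions lay within 1 kb of a start of another coding gene, and 8 of these were in all 6 libraries.

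The tallest regions without another coding gene in reach were a pair downstream of Or6s1 on chromosome 14. The first (51302022 to 51302971), printed above, stood at 105.3, 87.8 and 117 in control and at 132, 111 and 91.6 in HADA. The second (51300568 to 51301666) stood at 78.1, 55.1 and 80.3 in control and at 94.9, 82.9 and 72.2 in HADA. In both the groups overlapped.

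The other named receptor genes held few regions each. Or2z9 and Or1ab2 had 3, as had Vmn2r7, Vmn2r57 and Vmn2r95. Among Vmn1r genes, Vmn1r4 and Vmn1r2 had 2 and each of the others with a region, such as Vmn1r53, had 1.

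Most receptor peaks were weak. The median height over background of receptor peaks was 9.76, 9.76 and 12 in control and 10.7, 10.0 and 9.69 in HADA. All other peaks had medians from 14.6 to 18.6. The log2 difference was −0.72 (SD 0.122, lower in 6 of 6 libraries; p = 0.03125, exact sign-flip). With the authors' fold over local background in place of height the difference was −0.13, in the same direction. The 136 regions with no other coding gene in reach had a median highest height of 9.51, against 25.9 for the 25 near another coding gene.

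The receptor peaks sat on repeated bases more often than other peaks. The 50 bases at the summit occurred at least 2 times in the genome for 37.5%, 45.2% and 38.1% of receptor peaks in control and for 31.2%, 32.6% and 42.5% in HADA. For all other peaks the share was 12.8%, 17.3% and 13.2% in control and 8.89%, 9.18% and 10.7% in HADA. The receptor share was higher by 25.8 percentage points (SD 3.49, 6 of 6 libraries; p = 0.03125, exact sign-flip). With gene bodies alone the difference was 15.2 points. All other peaks include those at other coding genes. Outside coding windows, summit bases found a single time lay under 10182 of 13286, 9734 of 13921 and 7745 of 10451 peaks in control. In HADA these were 11238 of 13499, 11220 of 13554 and 11598 of 14474. For receptor peaks they were 60 of 96, 63 of 115 and 52 of 84 in control, and 55 of 80, 58 of 86 and 50 of 87 in HADA. Receptor peaks were not tested against that class. Between the groups, the receptor share overlapped (p = 0.3, exact permutation), while that of all other peaks was lower in each HADA library (9.58% ± 0.959 against 14.4% ± 2.46, SD, n = 3 each; p = 0.1, exact permutation).

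Of the 161 regions, 59 had a repeated summit. For 25 the bases occurred at least 100 times, and for 10 at least 1000 times. The highest were Vmn2r91 with 10363 copies, Vmn1r230 with 6675 and Or1o3 with 3500. Of the copies of the Vmn2r91 summit, 101 lay in receptor windows. For 4 of the 59 every copy lay in a receptor window, and the rest had copies elsewhere in the genome.

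**Figure D2:**
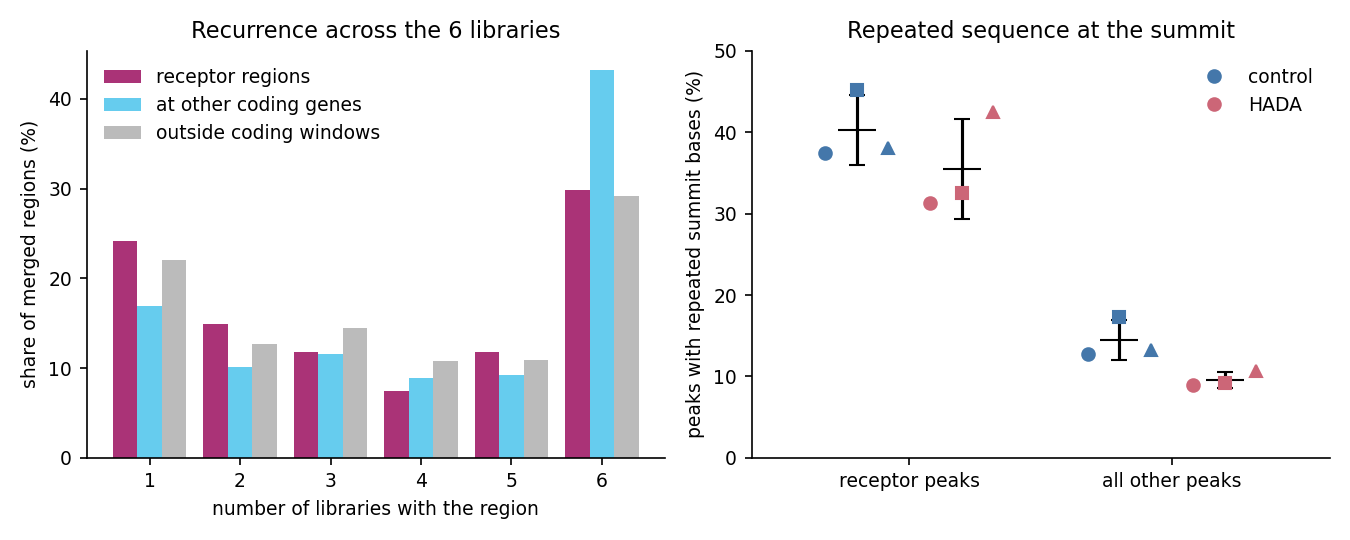
Left, share of merged regions found in 1 to 6 libraries, for receptor regions, regions at other coding genes and regions outside coding windows. Right, share of peaks whose summit bases occur at least 2 times in the genome, per library (circle, square and triangle for replicates 1, 2 and 3), with group means and SD, n = 3; every receptor value, from 31.2% to 45.2%, lies above every value of other peaks, from 8.89% to 17.3%.

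Sequence around the summits tied members to each other. An unbroken run of 20 bases or more, on either strand and without simple repeats, was shared with another member by 54 of the 161 regions. They fell into 14 groups. The largest, here the leading group, held 19 regions on chromosomes 2, 3, 4, 7, 10, 11, 14 and 17, Or51aa2, Vmn2r41 and Or1o3 among them. A group of 7 held Vmn2r91 and Vmn1r230. This grouping was made after the values had been seen.

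Motifs of factors known for receptor choice or for blood cells were searched within 100 bp of the summits, on both strands. The EBF motif was at 1 of 161 receptor regions (0.621%) and at 0.73% of all regions. The LHX2 motif TAATTA was at 9 (5.59%) and at 2.83% of all regions. The ETS motif CGGAAG was at 10 (6.21%) against 9.39%, and the AP1 motif TGANTCA at 4 (2.48%) against 5.58%. A CTCF motif was at 0 and at 0.894% of all regions. Outside coding windows the shares were 0.647% for EBF, 3.74% for LHX2, 7.21% for ETS, 5.96% for AP1 and 0.885% for CTCF. The receptor summits were lower in G and C than summits outside coding windows by 1.58 percentage points (SD 0.489, 6 of 6 libraries, p = 0.03125, exact sign-flip). The part of base composition in the motif shares was not tested.

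Genes that work with the receptors were looked up as lists. Of 12 genes of odorant signal transduction, 5 had a peak in all 6 libraries (Gnal, Adcy3, Cnga4, Cngb1 and Ric8b) and 4 in none (Gng13, Omp, Rtp1 and Rtp2). Cnga4 and Cngb1 encode subunits of the olfactory cation channel, while Rtp1 and Rtp2 carry odorant receptors to the cell surface. Of 3 vomeronasal genes, the G protein subunit Gnai2 had a peak in all 6, Gnao1 in 4, and the channel gene Trpc2 in none. Of 9 genes of receptor choice and silencing, 5 had a peak in all 6 (Ldb1, Ebf1, Ebf4, Kdm1a and Cbx5) and 2 in none (Ebf2 and Emx2). Ebf1, also a factor of B cell development, had 8, 7 and 1 peaks in control and 22, 18 and 20 in HADA, with the groups apart. The beta-globin genes sit inside a cluster of Or genes: Hbb-bt had a peak in 4 libraries, Hbb-bs in 1, and Hbb-bh1 and Hbb-y in 0.

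The recurrence of receptor regions was close to that of regions outside coding windows. They were found in 1 to 6 libraries for 39, 24, 19, 12, 19 and 48 regions. The 48 in all 6 are 29.8%, against 29.2% outside coding windows and 43.2% at other coding genes. Of the called regions of a library, the share found in all 6 differed from that of all other regions by −7.67 percentage points (SD 10.0, p = 0.156, exact sign-flip), and from that of regions outside coding windows by 2.20 points (SD 7.70, p = 0.4375, exact sign-flip). Of the 39 regions in a single library, 21 came from control 2 and 2 to 5 from each of the others. Regions found in no other library made up 17.2% of the receptor regions of control 2 and 8.41% of its remaining regions. In the other libraries these shares were 2.17% to 5.68% and 2.97% to 4.96%, so control 2 was the highest in both. The mean Jaccard index of receptor regions between libraries was 0.709 among HADA libraries, 0.625 among control libraries and 0.544 between groups, against 0.777, 0.689 and 0.595 over all regions.

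Which receptor regions were called in every library of a group and in none of the other? HADA-only regions numbered 6 of 161 (3.73%), against 7.15% of all merged regions. Control-only regions numbered 5 (3.11%), against 1.86%. With a library left out the rule asks for fewer libraries, so over the same regions these numbers can stay or rise but not fall. Without control 3 the control-only number was 15, or 9.32% against 3.45% of all regions under the same rule. Without HADA 3 it was 10, or 6.21% against 2.68%, and without control 1 it was 8, or 4.97% against 2.79%. Without control 2 it was 7, or 4.35% against 2.80%, and 8 with the regions merged anew.

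The 6 HADA-only regions were weak to moderate. Vmn2r27 (chromosome 6, 124178943 to 124179554, intron) stood at 22.6, 17.6 and 16.3 times background in the HADA libraries. Or1ab2 (chromosome 8, 72864614 to 72865142, exon) stood at 20.9, 21.6 and 18.1. Or52n4 (chromosome 7, 104296159 to 104296766, exon), 163 bases from the receptor start, stood at 13.7, 13.1 and 11.5. These 3 had summit bases that occur a single time in the genome. The other three were lower, with means of 9.67 at Or10b1, 8.68 at Or2z9 and 5.21 at Or12j3. The Or1ab2 summit was 206 bases from a start of the rRNA gene Gm55755, and the Or10b1 summit 337 bases from one of the noncoding RNA Gm47944.

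The 5 control-only regions were led by Or8u9 (chromosome 2, 86005685 to 86006360, intron). Its heights were 19.5, 16.6 and 37.7, with control 3 the highest. Vmn1r21 (chromosome 6, 57828148 to 57828679, upstream) stood at 11.8, 6.83 and 21.3 on bases with 342 copies. Vmn2r57 stood at 4.73, 14.1 and 4.92 on bases with 588 copies. Or6b2b and Or13a1 had means of 7.30 and 6.89. The weakest of the 161 regions reached 4.39 times background in its highest library.

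The 48 receptor regions with a peak in all 6 libraries allow a comparison of height. The heights were compared on 2 scales. The first is the rank of the authors' fold within a library, turned into normal scores. The second is the log2 summit pileup, centred in each library on the median of the 23013 shared regions. Centring matters here, since the heights over background of the median shared region were higher in HADA by 0.355 on the log2 scale.

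By rank, 1 of 48 regions was higher in HADA and 11 were lower (limma, Benjamini-Hochberg adjusted over all 23013 regions). Among all shared regions 6.48% were higher and 4.92% lower. The calls were not stable: 0 receptor regions and 0 of all regions passed in either direction when any HADA library was left out or with the replicate block, although 17 to 19 receptor regions (22 with the block) and 2568 to 2873 of all regions (3281 with the block) were lower at an unadjusted p under 0.05. Without control 2 the number lower was 7 (14.6%, against 2.39% of all shared regions), and without control 3 it was 6 (12.5%, against 2.58%). By centred pileup, 2 were higher (4.17%) and 26 lower (54.2%), against 17.5% and 23.4% of all shared regions. Shared regions outside coding windows were closer to the receptors: 14.6% of these 6261 were higher and 43.0% lower by pileup, and 9.44% were lower by rank against 22.9% of the receptor regions. The difference between receptors and that class was not tested. The number lower by pileup was 11 to 26 when a library was left out, the lowest without HADA 2, where 22.9% of the receptor regions and 7.77% of all shared regions were lower. It was 16 without HADA 1 (33.3% against 14.1%) and 27 with the replicate block (56.2% against 22.4%). These pileup settings were added after seeing the data.

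The region that was higher by rank lay downstream of Or6x1 on chromosome 9 (40103325 to 40104309), 150 bases from a start of Zfp202, a zinc finger gene. It stood at 20.7, 15.1 and 13.7 times background in control and at 38.9, 33.7 and 33.9 in HADA. The groups were apart. The rank score differed by 0.67 (SE 0.128, limma, adjusted p = 0.0308) and the centred log2 pileup by 0.73 (SE 0.158, adjusted p = 0.0135).

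The 11 regions lower by rank all lay away from other coding genes. Or52n2 (chromosome 7, 104536877 to 104539227, downstream) stood at 23.1, 33.2 and 27.9 times background in control and at 11.5, 9.55 and 14.1 in HADA. Its centred log2 pileup fell by 1.66 (SE 0.279, limma, adjusted p = 0.00927). Or51aa2 (103182855 to 103184865, downstream), with 282 copies of its summit bases, stood at 22.5, 35.6 and 21.3 in control and at 9.83, 12.1 and 11.5 in HADA. In both regions every HADA library was below every control library.

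Vmn2r41 (8136697 to 8139301, downstream) stood at 19.5, 29.8 and 20.2 in control and at 8.97, 12.6 and 11.5 in HADA. Vmn2r51 (9841336 to 9843279, upstream) stood at 18.3, 25.9 and 15.3 in control and at 6.41, 8.04 and 9.69 in HADA. Or13a17 (140274290 to 140275367, exon) stood at 14.8, 19 and 12 in control and at 6.84, 6.53 and 7.93 in HADA. All 3 are on chromosome 7, as are the 2 before them, and control 2 was the highest library at each of the 5. The rank score of these 5 was lower in HADA by −1.74 (Or52n2) to −1.39 (Or13a17), with adjusted p from 0.0232 to 0.0312 (limma).

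Among the most repeated regions, Vmn2r91 was in all 6 libraries at 15.4, 23.4 and 13.7 times background in control and at 11.1, 9.55 and 7.49 in HADA. The groups were apart, and its centred log2 pileup fell by 1.27 (SE 0.275, limma, adjusted p = 0.0136). By rank it was not called (adjusted p = 0.0602, limma). Or1o3 lacked a peak in HADA 3, and Vmn1r230 was called in control 2 alone, at 4.88 times background.

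**Figure D3:**
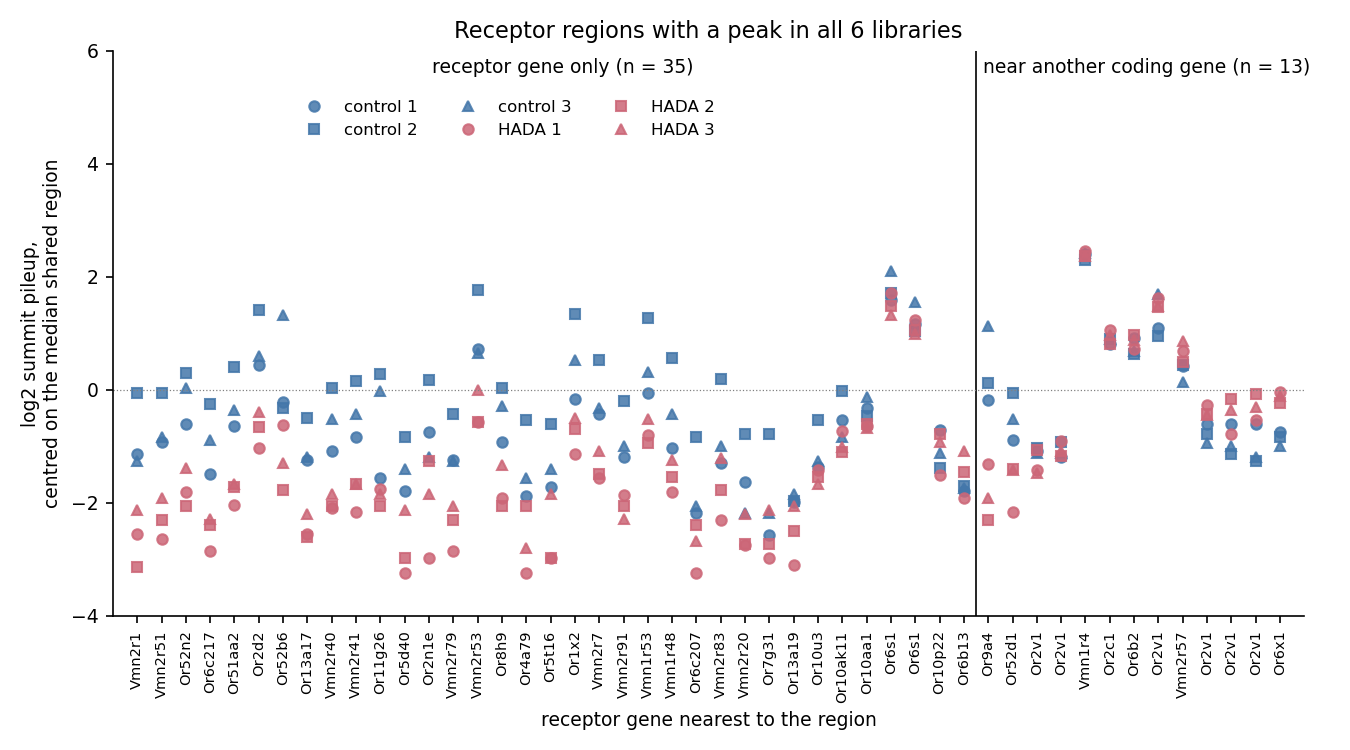
Log2 summit pileup of the 48 receptor regions found in all 6 libraries, centred on the median shared region of each library. The 35 regions without another coding gene in reach are on the left and the 13 near another coding gene on the right, each ordered by the HADA minus control difference; points are libraries, and in 28 of the 35 all HADA points lie below all control points.

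The 48 regions were described in parts with and without another coding gene in reach. Of the 35 with no other coding gene in reach, all 3 HADA libraries lay below all 3 controls in 28 and above in 0, with a median difference of −1.36 on the centred log2 scale. Of the 13 near another coding gene this was so in 2 and the reverse in 4, with a median of 0.11. The ranges overlapped, at −1.79 to 0.26 for the 35 and −2.20 to 0.73 for the 13, and the difference between the parts was not tested. The lowest value of the 48 was at Or9a4 near Clec5a, named here after its value was seen, which stood at 30.8, 29.3 and 59.6 times background in control and at 16.2, 8.04 and 9.69 in HADA. Its centred log2 pileup fell by 2.20 (SE 0.380, limma, adjusted p = 0.00944), while by rank it was not called (adjusted p = 0.700, limma). Over the 48 it makes 30 below and 4 above, against 31.6% and 29.2% of all shared regions. Among shared regions outside coding windows 49.96% were below and 20.4% above, with a median difference of −0.64. Without centring, by height over background, 21 were below and 11 above, against 16.6% and 43.5%. The lower regions were also wide: the 24 of the 35 that were lower by limma on pileup had a median width of 1862 bases, against 950 for the other 11. Control 2 held the highest centred pileup in 28 of the 35, and in 17 of the 17 with repeated bases. It also held the highest in 1968 of 6261 shared regions outside coding windows, more than any other library there. Over all 23013 shared regions it did so in 2781. Without control 2 the number lower is 21 of 48 by centred pileup (43.8%, against 22.8% of all shared regions, limma).

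The same sequence elsewhere in the genome differed in the same direction. Runs of 20 bases taken from the leading group were present within 50 bases of the summit at 1064 of all regions (1.76%). Of these, 632 were shared by all 6 libraries and were no receptor regions. Their centred log2 pileup was lower in HADA at 631 of 632, with a median difference of −1.29. Over all shared regions that are no receptor regions it was lower at 12003 of 22965, with a median of −0.04. Shared regions outside coding windows were themselves lower at 4207 of 6261, with a median of −0.64. The 632 were not compared with repeated sequence in general. All 3 HADA libraries lay below all 3 controls at 566 of the 632 (89.6%) and above at 0. The median centred log2 pileup over the 632 was −0.71, 0.41 and −0.60 in control and −1.85, −1.60 and −1.29 in HADA, so that control 2 was the highest and the remaining controls were still above every HADA library. This was not particular to the leading group. Over the runs of any of the 14 groups, 969 of 974 such regions were lower, with a median of −1.25, and the 11 other groups with shared regions had 95% to 100% of them lower. The regions share bases and thus can share reads, and are not independent measurements. The background pileup and the share of repeated summits also differ between the libraries, and their part in this difference was not tested.

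**Figure D4:**
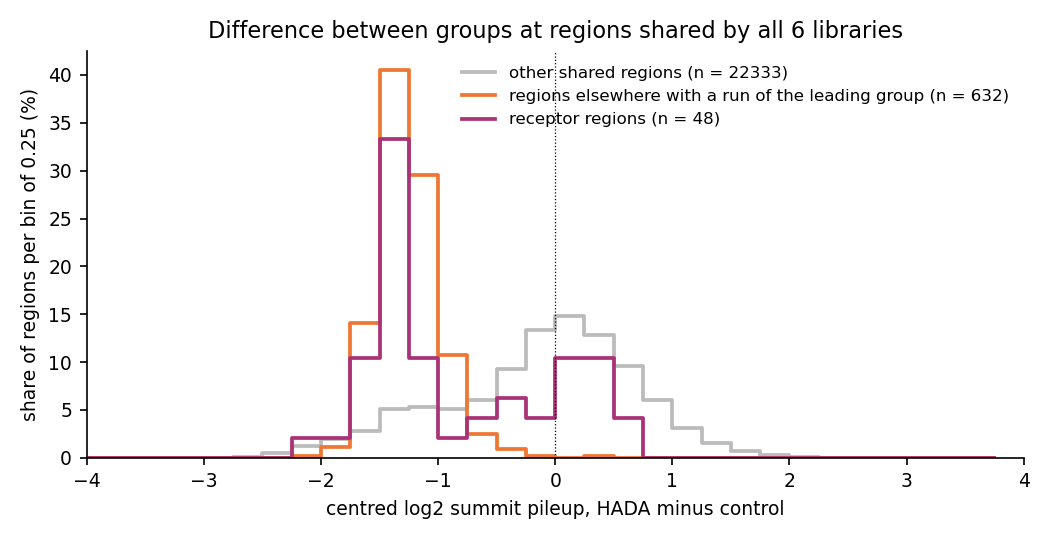
Distribution of the HADA minus control difference in centred log2 summit pileup over regions shared by all 6 libraries, as the share of regions per bin of 0.25. The 632 regions elsewhere with a run of the leading group peak near −1.29, and the 48 receptor regions show a peak at the same place and another above 0. The other 22333 shared regions centre near 0, with a shoulder from −1.5 to −0.75, where the bins hold 1140, 1195 and 1128 of them.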

How the data were processed

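Open chromatin was profiled by ATAC-seq in 3 control and 3 HADA libraries. Per the methods, the authors used Trimmomatic for trimming, Bowtie2 for alignment to GRCm39, Picard for duplicates, which were discarded, and MACS2 for peaks. One list per library was deposited. MACS2 options, any Tn5 shift and the handling of reads that align at several places are not given in the sources used here. The peaks at repeated bases depend on that handling. The deposited lists hold, per peak, the summit's offset in bases, a score, a ratio (fold over local background), and −log10 values of p and of q.

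Summit pileup and background were solved from the deposited fold and −log10 p-value, and the commonest background stood for depth. Peaks sharing a base were merged over libraries, and genes came from GENCODE M39. Exact copies of the 50 summit bases were counted on chromosomes 1 to 19, X and Y. Single values were compared by exact permutation (groups) or exact sign-flip (receptors against a reference), and shared regions by limma 3.58.1 in R 4.3.3 at an adjusted p of 0.05. Scripts were tested on simulated data.

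Replicate numbers are shared between groups, but the deviations of same-numbered libraries correlated at −0.101, 0.0889 and −0.375, so the groups were not paired. Regions were named by rule: the 6 tallest in all libraries, group-only regions, up to 5 per direction by limma, the 3 most repeated, and the genes with most regions per family. Members and lists were chosen with earlier results of these data known. Alternatives covered peak thresholds, list length, depth, windows, repeats, neighbouring genes and single libraries; one without Or2v1, the pileup comparison with each library left out or with the replicate block, and the family densities per Mb of unrepeated sequence were added after seeing the data. Authors' counts over peaks were not used here.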

Additional observations from a re-analysis of the deposited data

How the results depend on the processing

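The rate and count of receptor peaks, both density comparisons, summit strength and repeated share kept their direction under every alternative run. With 1 library left out, the exact sign-flip tests over 5 libraries cannot go below p = 0.0625 and lost the threshold on that account: the differences ran from −2.63 to −2.48 for density against other coding windows, −1.30 to −1.21 against sequence outside, −0.75 to −0.69 for strength and 24.6 to 26.5 points for repeated bases. Control-only regions ranged from 5 to 15 with a library left out, which relaxes the rule, and numbered 3 at a −log10 q of at least 5, 9 in lists cut to the same number of strongest peaks, 2 in gene bodies and 8 with 10 kb flanks; the cause was not tested. HADA-only regions stayed between 4 and 9. By rank, the limma calls ran from 0 to 1 higher and 0 to 10 lower with a library left out, and became 2 higher and 26 lower with centred pileup. Among summits found a single time 7 were lower (25%, against 5.43% of all regions so tested). That setting does not leave out all recurring sequence: Or8h9 and Vmn2r40, each with 1 copy of the summit bases, belong to the leading group. With the replicate block 0 were higher and 0 lower by rank, and the block changed no other direction. Depth is known only as background pileup. The count difference was −5.67 to −21.2 with a library left out, −3.33 at a −log10 q of at least 10, and −26 with the groups apart in lists of the same number of strongest peaks; in gene bodies it was −2.67, and with 10 kb flanks −35.3. With pileups thinned to the lowest background the repeated share differed by 25.7 points and strength by −0.70.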
